A study of Homo sapiens with 6 samples.

Results

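Chaperones are the proteins that help other proteins fold, hold them when they unfold and pass them on for assembly or destruction. HSP70 proteins bind short exposed stretches of a client in a cycle driven by ATP, with J-domain proteins bringing clients and switching the cycle on and with exchange factors releasing them, while HSP90 acts later on a narrower set of clients such as kinases and steroid receptors, steered by co-chaperones. The ring-shaped chaperonin TRiC folds actin and tubulin, and heat shock factor 1 (HSF1) switches many of these genes on together when unfolded protein builds up, which many cancer cells rely on.

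The 45 genes described here were the rows of the deposited table whose symbol was on a given list of HSP70, HSP90, small heat shock, J-domain, co-chaperone and TRiC genes, out of 58735 rows in all. The list is named for cytosolic chaperones, but it does not hold cytosolic proteins only. HSPA9, TRAP1, HSPD1, HSPE1 and DNAJA3 encode proteins of the mitochondrion, and HSPA13 an HSP70 protein associated with the endoplasmic reticulum. Symbols were grouped into 10 roles, and each gene is reported under its own role.

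The RNA came from AsPC-1, an established human pancreatic cancer cell line. The Vector group (n = 3) carried an empty lentivirus, and the OE-MMP28 group (n = 3) a lentivirus with the cDNA of MMP28, a secreted matrix metalloproteinase. According to the methods, the viral vector carried GFP and a puromycin resistance gene and stable cells were obtained by puromycin selection, so lentiviral infection and selection were shared by both groups and each group was a selected population for which no single clone is described. Triplicate samples were taken per group. The methods say in general that cell experiments were repeated independently, but not whether the sequenced triplicates were separate cultures, so the p-values below measure the spread between these samples, which may be technical.

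Totals ranged from 13633249 to 16691458 counts per library, and the share of counts from mitochondrial genes was 13.7% ± 1.62 (SD, n = 3) in Vector and 10.8% ± 1.71 (SD, n = 3) in OE-MMP28. MMP28 itself measured 5.17, 9.11 and 8.43 FPKM in Vector replicates 1 to 3 and 13.1, 13.9 and 15.1 FPKM in OE-MMP28, a log2 fold change of 0.90 ± 0.19 (SE; edgeR quasi-likelihood test, adjusted p = 0.00226). FPKM counts fragments per kilobase of a gene and is scaled by each library's total. Of 6 epithelial markers, EPCAM, KRT8, KRT18 and KRT19 were at 260.4 FPKM or more in every library, while KRT7 lay between 0.597 and 2.22 FPKM and CDH1 at 17.3 to 22.01 FPKM in Vector and 10.9 to 14.8 FPKM in OE-MMP28. The sum of the 6, which the keratins carry, ranged from 2579 to 3520 FPKM in Vector and from 3517 to 4305 FPKM in OE-MMP28. Among the leukocyte, fibroblast and endothelial markers, CD3E had 0 counts in all libraries, PTPRC, COL1A2 and CDH5 at most 1 count, and CD68, COL1A1, DCN and VWF at most 19 counts. CD14 had 17 to 30 counts, PECAM1 0 to 30 counts with each OE-MMP28 library above each Vector library, and LUM, listed as a fibroblast marker, 33.8 to 56.9 FPKM. The part of these markers in the results below was not tested. In bulk RNA a change in the number of expressing cells and a change in the RNA per cell cannot be told apart.

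Many chaperone genes carry heat shock elements, the DNA letters that HSF1 binds, built from repeats of GAA and TTC. The RefSeq promoter table (build GRCh38.p14) held 59 windows for 42 of the 45 genes, and HSF1, STUB1 and FKBP4 were not matched. The 250 bases upstream of each start were searched for GAANNTTC and TTCNNGAA, each of which reads the same on both strands, and for the long form of 13 letters, in which 1 more GAA or TTC follows at the same spacing, so that both short forms overlap in it. A short form was found in 30.5% of the members' windows and in 11.6% of all 35116 windows, and a long form in 10.2% of the members' windows and in 0.441% of all windows. The 6 genes with a long form were HSPA8, HSPD1, HSP90AA1, HSP90AB1, CHORDC1 and DNAJB6. The stretches below are shown because they belong to the genes on which the comparison turns, or to the classical inducible genes that did not move with them. They are written 5′ to 3′ on the strand that reads as the RNA of the gene does, and the capitals mark the matched letters.
HSP90AA1, chr14:102087104-102087133, minus strand: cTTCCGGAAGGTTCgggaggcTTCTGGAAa
HSPA8, chr11:123062345-123062374, minus strand: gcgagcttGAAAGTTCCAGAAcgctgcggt
HSPA8, chr11:123062170-123062199, minus strand: cgggccccTTCTGGAAGGTTCtaagatagg
CHORDC1, chr11:90223083-90223112, minus strand: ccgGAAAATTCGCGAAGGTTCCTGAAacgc
HSP90AB1, chr6:44247770-44247799, plus strand: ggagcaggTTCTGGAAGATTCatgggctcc
HSP90AB1, chr6:44247823-44247852, plus strand: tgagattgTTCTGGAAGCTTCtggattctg
HSPA1A, chr6:31815426-31815455, plus strand: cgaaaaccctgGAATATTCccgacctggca
HSPA1B, chr6:31827622-31827651, plus strand: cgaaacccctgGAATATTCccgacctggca
DNAJB1, chr19:14518456-14518485, minus strand: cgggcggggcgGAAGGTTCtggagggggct
DNAJB1, chr19:14518426-14518455, minus strand: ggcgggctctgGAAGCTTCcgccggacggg

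The stretch of HSP90AA1 begins 89 bases upstream of one of its RefSeq starts, and that of CHORDC1 begins 63 bases upstream. Upstream of a RefSeq start does not mean outside exons. In the windows that hold these stretches, annotated exons of any gene covered from 3 bases for HSPA1B to all 250 for HSPA8 and CHORDC1. HSPA1A and HSPA1B carry the same short form in nearly identical surroundings. BAG3, the member with the lowest adjusted p, had no match in its window, of which the 240 bases from 250 to 11 bases upstream of the start are given here. No match says only that these letters are not in this window.
BAG3, chr10:119651130-119651369, plus strand: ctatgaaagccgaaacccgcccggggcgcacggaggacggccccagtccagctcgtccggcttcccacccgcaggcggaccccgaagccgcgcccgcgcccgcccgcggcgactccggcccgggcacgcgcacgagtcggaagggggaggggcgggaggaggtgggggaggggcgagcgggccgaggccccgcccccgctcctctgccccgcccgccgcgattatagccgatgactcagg

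Compared with the Vector group, part of the HSP70 and HSP90 machinery was higher in OE-MMP28 cells: the HSC70 gene HSPA8, the HSP90 gene HSP90AA1 and the HSP90 co-chaperones AHSA1, FKBP5 and CHORDC1 rose by 1.52-fold to 1.86-fold. The mitochondrial genes HSPA9, TRAP1 and DNAJA3, the ubiquitin ligase STUB1 and the weakly expressed DNAJB5 also rose. BAG3 and DNAJB2, which both act on clients bound for degradation, fell to 0.548 and 0.484 of their Vector level. The heat-inducible HSP70 genes HSPA1A and HSPA1B, the HSP90 gene HSP90AB1, the small heat shock protein HSPB1 and the 7 TRiC subunits were not past the threshold, which was an adjusted p under 0.05 over all genes tested.

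Of the 45 genes, 44 passed the filter on low counts, and HSPB8 had 0 counts in all 6 libraries, which allows up to 0.180 to 0.220 CPM per library (3 counts, counting error only). In the edgeR test 10 of 44 were higher (22.7%), against 11.7% of all 15319 genes tested, and 2 were lower (4.55%), against 11.6% of all genes. The median log2 fold change was 0.21 over the 44 members and 0.014 over all genes, with 28 members above 0. On TMM-scaled values the groups did not overlap in 14 members that were higher and 3 that were lower, and the shares over all genes were 19.5% and 18.6%. No test of the list as a whole was made. The higher calls depended on the fit. Limma on log2(FPKM + 1) or log2(FPKM + 0.1) tested 43 members and called only TRAP1 and DNAJA3 higher. Over all genes these fits called 6.63% and 6.57% higher. The local median is the median log2 fold change of the other genes within 5 Mb. An edgeR fit with an offset for it called only FKBP5 of the 44 members higher, beside 7.41% of all genes. Of the 19 members listed as heat-inducible, HSPA8, HSP90AA1, AHSA1 and CHORDC1 were higher and BAG3 lower, with a median log2 fold change of 0.09, while of the other 25 tested members 6 were higher and 1 lower, with a median of 0.26.

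**Figure D1:**
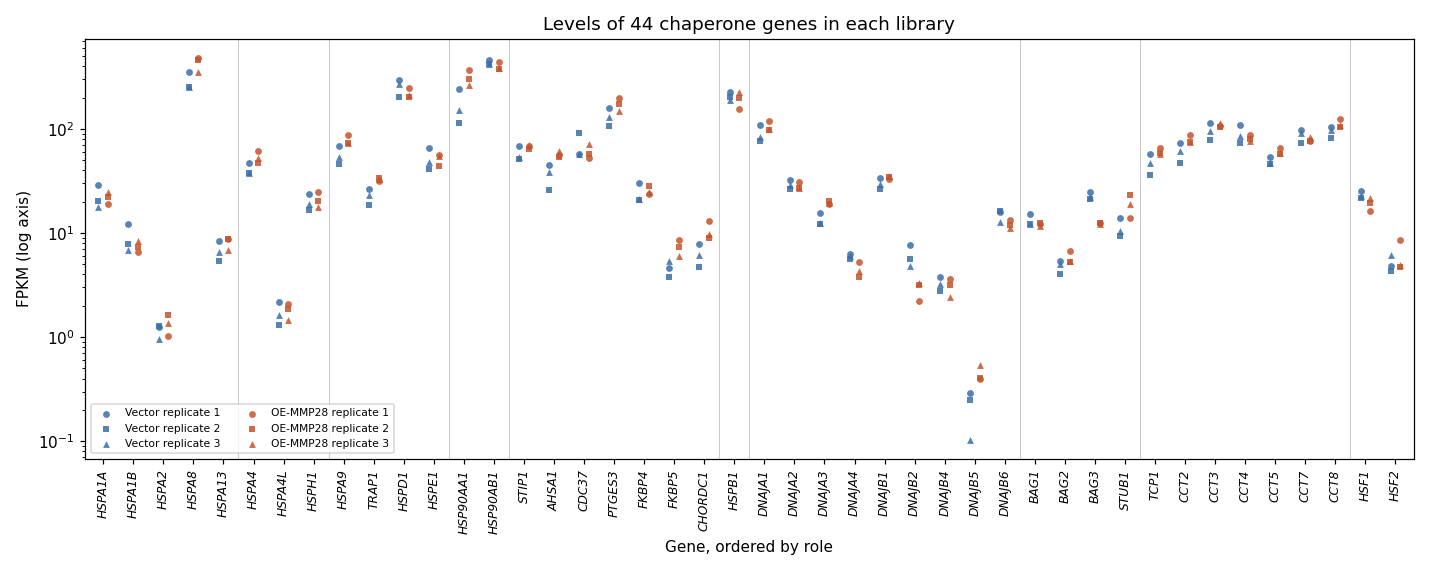
FPKM on a log axis (y) of the 44 tested chaperone genes (x, ordered by role, roles separated by vertical lines) in each of the 6 libraries, with Vector in blue, OE-MMP28 in orange and a marker shape per replicate. HSP90AB1, HSPA8, HSP90AA1, HSPD1, HSPB1 and PTGES3 sit at the top, each above 100 FPKM in every library, and DNAJB5 lies at the bottom between 0.104 and 0.535 FPKM.

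The plot of levels by library shows how unequal the members were per length. HSP90AB1 was the most abundant in Vector at 432 FPKM ± 21.2 (SD, n = 3), followed by HSPA8 at 287 FPKM ± 60.1, HSPD1 at 257 FPKM ± 47.6 and HSPB1 at 207 FPKM ± 19.4. In OE-MMP28 the order at the top was HSPA8 at 432 FPKM ± 70.5 (SD, n = 3), HSP90AB1 at 400.0 FPKM ± 34.04 and HSP90AA1 at 313 FPKM ± 53.6. HSPA8 and HSP90AB1 in OE-MMP28 differed by less than the spread of their replicates, as did HSPA8 and HSPD1 in Vector.

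Among the HSP70 genes, HSPA8 (ENSG00000109971, chr11:123057489-123063230 on GRCh38) encodes HSC70, the HSP70 that unstressed cells also make in quantity and that is listed here among the heat-inducible members. It measured 356, 253 and 251 FPKM in Vector replicates 1 to 3 and 481, 464 and 351 FPKM in OE-MMP28 replicates 1 to 3. Vector replicate 1 reached the level of OE-MMP28 replicate 3, and the other libraries were apart. Its log2 fold change was 0.60 ± 0.16 (SE; edgeR, adjusted p = 0.0117), and it was no longer past the threshold without Vector replicate 3, OE-MMP28 replicate 1 or OE-MMP28 replicate 2 (adjusted p up to 0.0659).

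HSPA1A and HSPA1B encode the classical heat-inducible HSP70 proteins. HSPA1A measured 29.2, 20.3 and 17.95 FPKM in Vector and 18.9, 22.03 and 24.7 FPKM in OE-MMP28, and HSPA1B 12.2, 7.87 and 6.92 FPKM against 6.62, 7.28 and 8.30 FPKM. In both genes the highest of all 6 libraries was Vector replicate 1, and the groups overlapped. The log2 fold changes were -0.026 (95% interval -0.41 to 0.35) and -0.27 (-0.70 to 0.16). The pair shares 1666 stretches of 100 bases, 69.9% of those of the HSPA1A transcript, so the split of reads between them is uncertain, and their summed counts gave -0.092 (adjusted p = 0.756, chosen after seeing the data). HSPA2 and HSPA13 lay between 0.951 and 8.70 FPKM and were not past the threshold.

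The HSP110 proteins release spent ADP from HSP70. HSPA4 measured 37.5 to 47.1 FPKM in Vector and 46.7 to 61.2 FPKM in OE-MMP28, with a log2 fold change of 0.41 (95% interval 0.090 to 0.72) and an adjusted p of 0.0579 in the edgeR test. HSPH1 and HSPA4L, both listed as heat-inducible, gave 0.093 (-0.25 to 0.43) and 0.091 (-0.32 to 0.51). None of the 3 genes was past the threshold in edgeR, DESeq2 or limma voom. In edgeR 1 of the 3 had an unadjusted p under 0.05, as had 5487 of all 15319 genes.

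Of the 2 cytosolic HSP90 genes, 1 was past the threshold and higher, beside 11.7% of all genes. HSP90AA1 (ENSG00000080824, chr14:102080738-102139699), the stress-responsive HSP90-alpha, measured 241, 113 and 153 FPKM in Vector and 369.9, 305 and 264 FPKM in OE-MMP28. The groups did not overlap, and Vector replicate 1 was nearest to the OE-MMP28 libraries. Its log2 fold change was 0.90 ± 0.20 (SE; edgeR, adjusted p = 0.00344), and it was past the threshold whichever library was left out. With the offset it was at 0.38 (adjusted p = 0.223), and in the limma fits its adjusted p was 0.0536 and 0.0529. HSP90AB1, the HSP90-beta that cells make at a high basal level, measured 457, 418 and 422 FPKM in Vector and 439, 378 and 383 FPKM in OE-MMP28, with a log2 fold change of -0.10 (95% interval -0.39 to 0.18).

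Within a library, HSP90AA1 stood at 0.527, 0.271 and 0.363 of HSP90AB1 in Vector and at 0.842, 0.807 and 0.688 in OE-MMP28. The 2 sets did not overlap (means 0.387 ± 0.130 and 0.779 ± 0.0809, SD, n = 3), and p was 0.1 in a two-sided exact permutation test, which cannot go lower with 3 against 3 libraries. It was 1 of 3 ratios computed, all chosen after their values were seen, and its Benjamini-Hochberg adjusted p was 0.15. Counts of HSP90AA2P, a pseudogene of HSP90AA1, came to 0.33% of those of HSP90AA1.

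**Figure D2:**
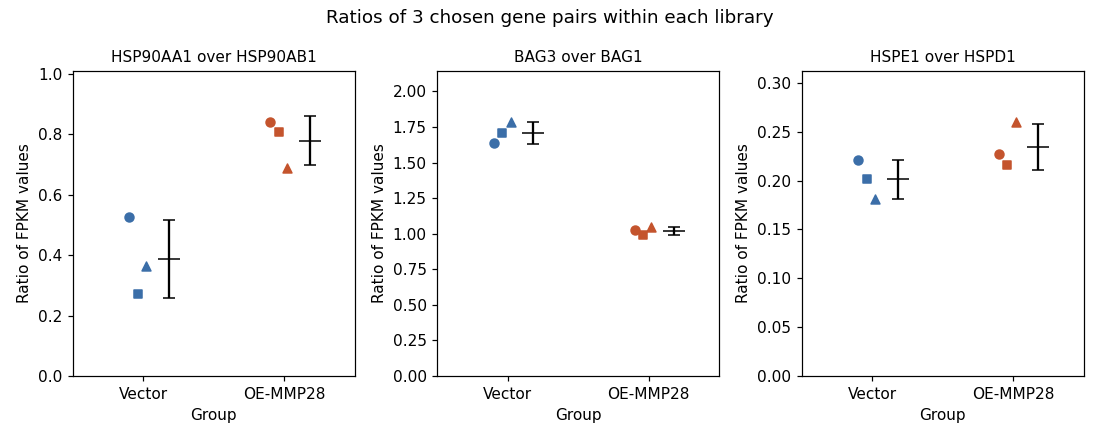
Ratio of FPKM values (y, from 0) of HSP90AA1 to HSP90AB1, BAG3 to BAG1 and HSPE1 to HSPD1 in each library, with Vector in blue and OE-MMP28 in orange, a marker shape per replicate, and the mean and SD (n = 3) as black bars. The groups are apart in the first 2 panels (means 0.387 and 0.779, and 1.71 and 1.02) and overlap in the last.

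The HSP90 co-chaperones set the pace of the HSP90 cycle or bring its clients. AHSA1, which speeds up HSP90 ATP hydrolysis, measured 45.1, 25.7 and 38.3 FPKM in Vector and 56.3, 53.6 and 61.8 FPKM in OE-MMP28. CHORDC1, a zinc-binding HSP90 partner that heat induces, measured 7.81, 4.75 and 6.11 FPKM against 13.2, 9.04 and 9.79 FPKM. FKBP5, which acts on steroid receptors and is itself a glucocorticoid target, measured 4.64, 3.79 and 5.43 FPKM against 8.48, 7.38 and 5.96 FPKM. In each of the 3 the groups did not overlap, although FKBP5 in Vector replicate 3 came close to OE-MMP28 replicate 3.

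The log2 fold changes were 0.67 ± 0.18 for AHSA1 (SE; edgeR, adjusted p = 0.00974), 0.78 ± 0.18 for CHORDC1 (adjusted p = 0.00412) and 0.66 ± 0.17 for FKBP5 (adjusted p = 0.00834), and all 3 were past the threshold whichever library was left out. In the limma fits on FPKM none of them was (adjusted p from 0.0514 to 0.0620), and with the offset AHSA1 was at 0.054 (adjusted p = 0.876) and CHORDC1 at 0.23 (adjusted p = 0.424), while FKBP5 stayed past it. The other 4 co-chaperones were not past it. STIP1, which hands clients from HSP70 to HSP90, gave 0.24 (95% interval -0.073 to 0.55), the p23 gene PTGES3 0.39 (0.061 to 0.73), FKBP4 0.084 (-0.26 to 0.43) and the kinase adaptor CDC37 -0.16 (-0.54 to 0.22). Unlike most members, CDC37 was highest in Vector replicate 2, at 90.6 FPKM against 56.9 FPKM in each of the other Vector libraries.

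Of the 4 genes in the role of mitochondrial chaperones, 2 were past the threshold and higher, beside 11.7% of all genes. The mitochondrial DNAJA3, listed with the J-domain genes, was higher too, and differences between these genes were not tested. HSPA9, the mitochondrial HSP70, measured 68.8, 46.3 and 53.2 FPKM in Vector and 86.9, 73.6 and 74.0 FPKM in OE-MMP28. TRAP1, the mitochondrial HSP90, measured 26.5, 18.6 and 23.3 FPKM against 31.8, 33.9 and 33.3 FPKM. DNAJA3, a J-domain protein that works with HSPA9, measured 15.7, 12.2 and 12.6 FPKM against 19.1, 20.4 and 19.4 FPKM. The groups were apart in all 3 genes, and Vector replicate 1 was the highest Vector library in each.

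Their log2 fold changes were 0.49 ± 0.16 for HSPA9 (SE; edgeR, adjusted p = 0.0287), 0.55 ± 0.15 for TRAP1 (adjusted p = 0.0143) and 0.55 ± 0.15 for DNAJA3 (adjusted p = 0.0109). HSPA9 was past the threshold in only 1 of the 6 fits that left out a library, the one without Vector replicate 1, with adjusted p up to 0.116 in the others. TRAP1 was lost without Vector replicate 2, Vector replicate 3 or OE-MMP28 replicate 2 (adjusted p up to 0.0764), and DNAJA3 without Vector replicate 3 or OE-MMP28 replicate 2 (adjusted p up to 0.0767). With the offset none of the 3 was past the threshold, HSPA9 being at 0.45, TRAP1 at 0.30 and DNAJA3 at 0.31. Exons of DNASE1 on the opposite strand cover 29.3% of the exon length of TRAP1, and whether counting used the strand was not given in the sources used here.

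HSPD1 and HSPE1, the mitochondrial chaperonin HSP60 and its lid HSP10, are neighbours that share a promoter region. HSPD1 measured 298, 204.5 and 267 FPKM in Vector and 249.9, 204.5 and 210.4 FPKM in OE-MMP28, with a log2 fold change of -0.20 (95% interval -0.53 to 0.12). HSPE1 lay between 41.2 and 66.0 FPKM in Vector and between 44.2 and 56.7 FPKM in OE-MMP28, with 0.011 (-0.35 to 0.37), a value whose sign turned under 11 of 18 alternatives. With the offset HSPD1 was at 0.13 and HSPE1 at 0.34, neither past the threshold. The groups overlapped in both genes, and the HSPE1 to HSPD1 ratio was 0.201 ± 0.0204 in Vector and 0.235 ± 0.0231 in OE-MMP28 (SD, n = 3; exact permutation p = 0.2).

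Of the 9 J-domain genes 2 were higher and 1 was lower (11.1%), where 11.7% and 11.6% of all genes were. DNAJB2 (ENSG00000135924, chr2:219279267-219286900), which carries ubiquitin-binding motifs and steers HSP70 clients to the proteasome, measured 7.61, 5.66 and 4.86 FPKM in Vector and 2.20, 3.15 and 3.34 FPKM in OE-MMP28. No OE-MMP28 library reached the lowest Vector library, and its log2 fold change was -1.05 ± 0.20 (SE; edgeR, adjusted p = 0.000947), past the threshold in all 18 alternative fits. DNAJA4 pointed the same way, with 6.32, 5.61 and 5.97 FPKM against 5.25, 3.82 and 4.30 FPKM, no overlap and a log2 fold change of -0.41 (95% interval -0.76 to -0.070, adjusted p = 0.0746).

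DNAJB5, a relative of DNAJB1, was barely expressed, with 9 to 53 counts per library. It measured 0.289, 0.251 and 0.104 FPKM in Vector and 0.397, 0.407 and 0.535 FPKM in OE-MMP28, with a log2 fold change of 1.07 ± 0.38 (SE; edgeR, adjusted p = 0.0475). Its 95% interval ran from 0.27 to 1.86, and it was not past the threshold in 10 of the 16 alternative fits that tested it. Among the other J-domain members, DNAJA1, the most abundant, gave 0.24 (95% interval -0.087 to 0.57). DNAJB1, the classical heat-inducible J-domain gene, gave 0.20 (-0.10 to 0.51). DNAJA2, DNAJB4 and DNAJB6 gave -0.035, -0.096 and -0.29, with intervals that held 0.

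BAG proteins bind HSP70 and decide where its clients go, and STUB1 is the ubiquitin ligase that marks them. BAG3 (ENSG00000151929, chr10:119651370-119677819), which leads clients to selective autophagy, measured 25.0, 21.1 and 22.1 FPKM in Vector and 12.5, 12.5 and 12.2 FPKM in OE-MMP28. The 3 OE-MMP28 libraries were nearly equal, and the lowest Vector library was far above them. Its log2 fold change was -0.87 ± 0.15 (SE; edgeR, adjusted p = 0.000469), and it fell in every fit that left out a library.

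BAG1, which links HSP70 to the proteasome, lay between 12.3 and 15.3 FPKM in Vector and between 11.6 and 12.6 FPKM in OE-MMP28, with a log2 fold change of -0.13 (95% interval -0.44 to 0.18). The BAG3 to BAG1 ratio was therefore 1.71 ± 0.0767 in Vector and 1.02 ± 0.0287 in OE-MMP28 (SD, n = 3), with no overlap. The exact permutation p was 0.1, the lowest possible with 3 against 3 libraries, and 0.15 after Benjamini-Hochberg adjustment. Groups that are apart fix that p in advance, and the pair was chosen after its values were seen. BAG2, an inhibitor of STUB1, gave 0.27 (-0.082 to 0.62).

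STUB1 (ENSG00000103266, chr16:680224-682870) measured 13.95, 9.26 and 10.46 FPKM in Vector and 13.95, 23.3 and 19.04 FPKM in OE-MMP28. Vector replicate 1 and OE-MMP28 replicate 1 were level, so the groups met, and the other libraries were apart. Its log2 fold change was 0.75 ± 0.20 (SE; edgeR, adjusted p = 0.00956), which became 0.56 (adjusted p = 0.104) without OE-MMP28 replicate 2. Exons of JMJD8 on the opposite strand cover 42.4% of its exon length.

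None of the 7 TRiC subunits was past the threshold in edgeR, DESeq2 or limma voom. In edgeR 3 of the 7 had an unadjusted p under 0.05, as had 5487 of all 15319 genes. TCP1, CCT2, CCT3, CCT5 and CCT8 had positive values and CCT4 and CCT7 negative ones, and the subunits had a median log2 fold change of 0.27. With the offset all 7 were positive, CCT7 at 0.34 and CCT4 at 0.33 being the highest of them, and none was past the threshold. TCP1 measured 57.5, 36.5 and 46.7 FPKM in Vector and 65.0, 58.8 and 57.5 FPKM in OE-MMP28, a log2 fold change of 0.38 (95% interval 0.041 to 0.71, adjusted p = 0.0968). CCT2 gave 0.40 (0.069 to 0.73), CCT5 0.32 (0.031 to 0.62), CCT8 0.27 (-0.038 to 0.57) and CCT3 0.18 (-0.13 to 0.50), whereas CCT4 gave -0.12 (-0.44 to 0.21) and CCT7 -0.14 (-0.45 to 0.17).

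HSPB1, a small heat shock protein that holds unfolding clients, measured 228, 202 and 190.1 FPKM in Vector and 156, 198 and 224 FPKM in OE-MMP28, with a log2 fold change of -0.087 (95% interval -0.42 to 0.24). HSF1, the master regulator of the heat shock response, lay between 21.5 and 25.5 FPKM in Vector and between 16.1 and 21.5 FPKM in OE-MMP28, with -0.27 (-0.60 to 0.048). HSF2, a related factor, gave 0.24 (-0.23 to 0.70), with 8.54 FPKM in OE-MMP28 replicate 1 and 4.35 to 6.20 FPKM in the other libraries. Neither factor was past the threshold in any of the 3 tools, and neither had an unadjusted p under 0.05.

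Of the 6 with a long form, HSPA8, HSP90AA1 and CHORDC1 rose, and HSPD1, HSP90AB1 and DNAJB6 gave negative values that were not past the threshold. Of the 17 tested members with at least a short form 3 were higher (17.6%), and of the 24 without a match 6 were higher (25.0%) and 2 lower (8.33%), beside 11.7% and 11.6% of all genes. HSPE1 counts among the 24, although a long form of HSPD1, with which it shares a promoter region, lies outside the HSPE1 window. The sets thus depend on the starts and the 250 bases chosen, and the difference between them was not tested. A match is a description of the letters and not a site of binding.

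**Figure D3:**
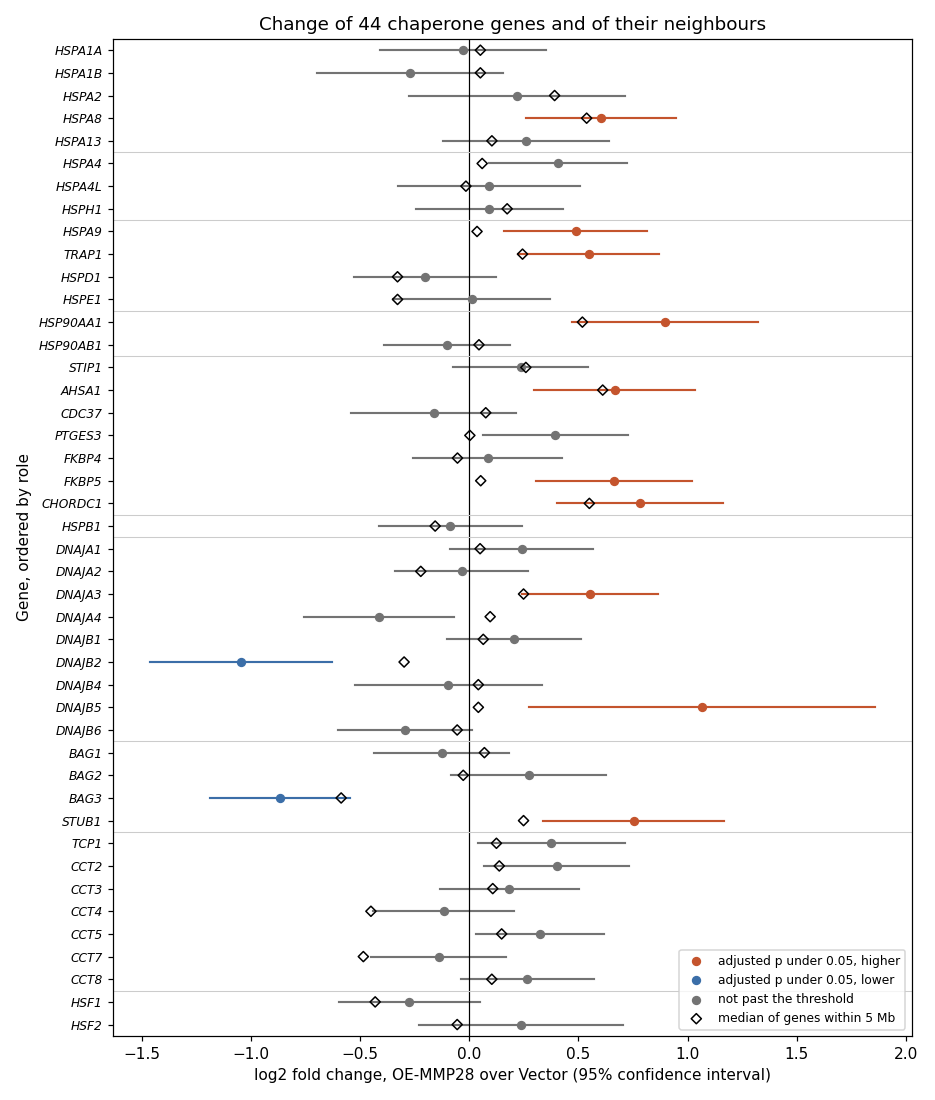
Log2 fold change of OE-MMP28 over Vector (x) with its 95% confidence interval for the 44 tested chaperone genes (y, ordered by role), in orange for the 10 that rose, in blue for the 2 that fell and in grey for those not past the threshold. Open diamonds give the median log2 fold change of the other genes within 5 Mb, which lies at 0.54 for HSPA8, 0.61 for AHSA1 and -0.59 for BAG3.

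Where a gene lies moved with its value. The local median was taken as the median log2 fold change of the other tested genes starting within 5 Mb on either side, over 7 to 236 genes. It was 0.2 or more for 7 of the 10 members that rose, for 2 of the other 34 members and for 15.5% of all genes tested, a limit chosen after seeing the values. The members that rose were picked by their log2 fold change in the same fit, which went with the local median over all genes too. The share among all genes called higher is not given here, so these shares do not set the chaperones apart from other genes that rose. HSPA8 and CHORDC1 on chromosome 11 had local medians of 0.54 and 0.55, and HSP90AA1 and AHSA1 on chromosome 14 had 0.52 and 0.61. The genes of each of these pairs lie too far apart to share neighbours. TRAP1, DNAJA3 and STUB1 near the end of chromosome 16 had 0.24 to 0.25 and do share neighbours. HSPA9, FKBP5 and DNAJB5 rose where the local medians were 0.036, 0.053 and 0.042. BAG3 fell where the local median was -0.59, and DNAJB2 where it was -0.30.

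Across the 44 members, Pearson's r between the log2 fold change and the local median was 0.69, and across all genes tested it was 0.35. Both are descriptions over genes that come from the same 6 libraries. When the local median was taken out as an offset in the edgeR fit, 1 member was higher, FKBP5 (0.61, adjusted p = 0.0197), and 2 were lower, DNAJB2 (-0.75, adjusted p = 0.0147) and DNAJA4 (-0.51, adjusted p = 0.0409). Calls fell over all genes too. Of all 15319 genes, this fit called 1135 higher (7.41%) and 1229 lower, beside 1795 and 1784 without the offset. HSPA8 was then at 0.065, AHSA1 at 0.054, CHORDC1 at 0.23, HSP90AA1 at 0.38 and BAG3 at -0.28, none of them past the threshold.

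**Figure D4:**
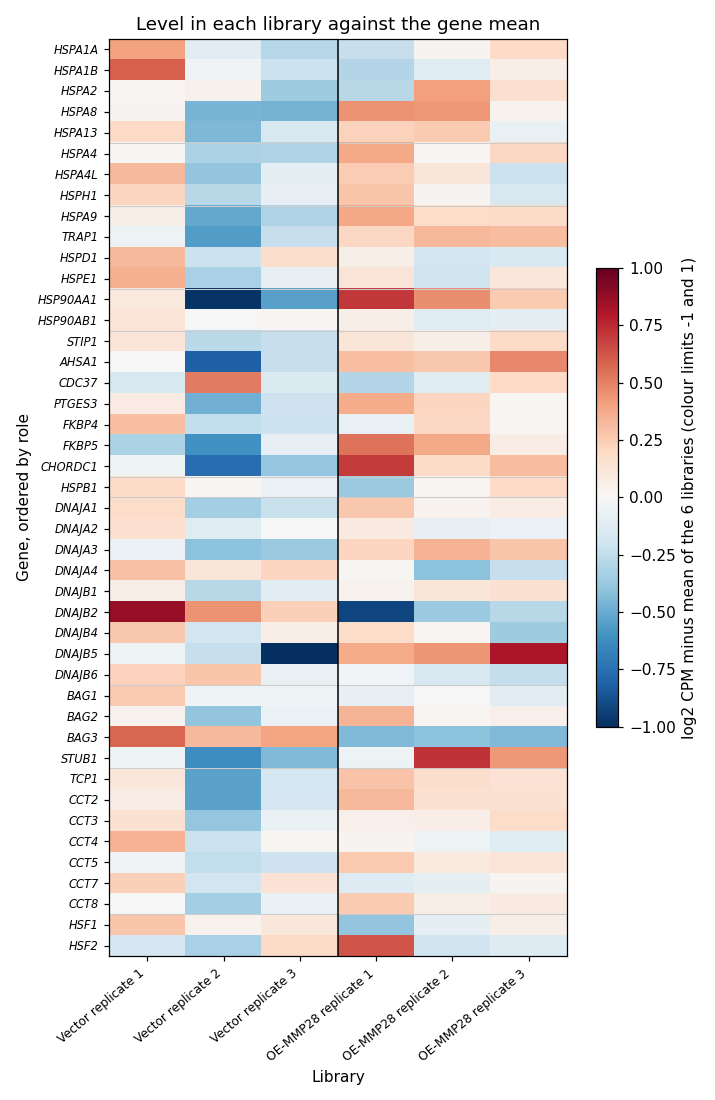
Log2 CPM of each tested chaperone gene (y, ordered by role) in each library (x) minus the mean of the 6 libraries, from blue (below) through white to red (above), with the colour scale limited to -1 and 1. Vector replicate 1 is redder than Vector replicates 2 and 3 over most rows, and BAG3 and DNAJB2 are red in Vector and blue in OE-MMP28.

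One control library stood apart for these genes. Vector replicate 1 was the highest Vector library in 39 of the 44 members (88.6%), against 36.5% of all genes tested and 46.2% of the 4342 genes that averaged 10 FPKM or more. The median over members of the log2 CPM minus the gene mean was 0.13, -0.28 and -0.13 in Vector replicates 1 to 3 and 0.15, 0.047 and 0.075 in OE-MMP28, while the same median over all genes lay between -0.0039 and 0.027. The members took 1.30%, 0.923% and 1.04% of the counts in Vector and 1.37%, 1.28% and 1.21% in OE-MMP28. Vector replicate 1 also had the lowest share of mitochondrial counts in its group, 11.9% against 14.5% and 14.8%, and the part of that in these values was not tested.

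Without Vector replicate 1, 14 members were higher, the same 10 with CCT2, HSPA4, PTGES3 and TCP1, and the same 2 were lower. Without OE-MMP28 replicate 2 only AHSA1, CHORDC1, FKBP5 and HSP90AA1 were higher, and without Vector replicate 3 these 4 with STUB1. The count of members that rose therefore ranged from 4 to 14, and BAG3 and DNAJB2 were lower each time. The share of all genes called higher moved too: 12.2% without Vector replicate 1, 6.27% without OE-MMP28 replicate 2 and 7.23% without Vector replicate 3. With all 6 libraries that share was 11.7%.

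A further 83 genes of the chaperone network, listed by their role, gave 84 table entries because HSPA14 had 2 of them, and 74 were tested. Of these 9 were higher (12.2%, beside 11.7% of all genes) and 4 lower (5.41%, beside 11.6%), with a median log2 fold change of 0.089, so the share that rose was near that of all genes. The genes called are given by their values. The HSP90-linked ATPases RUVBL1 and RUVBL2, which assemble large protein complexes, gave 1.09 and 0.64 (adjusted p = 6.9e-05 and 0.00616, edgeR), and their partner TELO2 gave 0.69. Of the mitochondrial partners CLPB, DNAJC19 and GRPEL1 gave 1.16, 0.73 and 0.44. BAG5 and HSPBP1, both nucleotide exchange factors of HSP70, gave 0.66 and 0.62, and DNAJC13 gave 0.71.

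The 4 that fell were HSPA6, HSF4, HSBP1L1 and DNAJC27, with log2 fold changes of -1.87, -0.89, -0.88 and -0.87. HSPA6, the HSP70 gene that is nearly silent without heat, measured 1.32, 0.749 and 1.00 FPKM in Vector and 0.133, 0.213 and 0.476 FPKM in OE-MMP28, on 5 to 48 counts per library (adjusted p = 0.00490). The groups did not overlap, and Vector replicate 1 was again the highest. CCT6A, the TRiC subunit outside the 45 genes, gave 0.11. None of the 11 TRiC and prefoldin genes of this list was past the threshold in edgeR, DESeq2 or limma voom. In edgeR 2 of the 11 had an unadjusted p under 0.05, beside 5487 of all 15319 genes.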

How the data were processed

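RNA of 6 AsPC-1 libraries was sequenced after preparation with a kit for Illumina. The authors deposited 1 table with whole-number read counts per gene, neither normalized nor pooled, and with FPKM values of the same libraries, whose implied totals differed from the summed counts by -2.01% to 2.02%. The submitters' processing notes name HISAT2 2.0.5 and featureCounts 1.5.0-p3. Their settings, how multi-mapping reads were treated and the use of strand were not given in the sources used here. All 58735 gene identifiers and coordinates were the same as in GENCODE 29 on GRCh38. Another 5 columns held fold changes, p-values and related values of the authors' own comparison and were not used. The number of unmapped per-sample columns was 0.

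Groups and replicate numbers came from the sample labels. Genes were kept by filterByExpr (minimum count 10, minimum total 15), libraries were scaled by TMM, and OE-MMP28 was compared with Vector by edgeR 4.0.16 (R 4.3.3, quasi-likelihood test, group alone), with Benjamini-Hochberg adjustment over 15319 genes and a threshold of 0.05. Intervals are 95%. Group overlap was judged on log2 CPM (prior count 2). Replicates of a group differed by more than counting noise, with chi-square per degree of freedom of 15.6 to 31.5. Named members were all those past the threshold and a fixed list of 16 members taken across the roles. The others are given by their level, their log2 fold change or both. The members and lists were chosen with earlier results of these data known. Alternatives were 18 other fits, 6 of them leaving out a library, with DESeq2 1.42.0 and limma 3.58.1 among them, a fold change limit, and the sum of HSPA1A and HSPA1B. The fitting code was tested on simulated data. Promoters were the RefSeq sequences of GRCh38.p14.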

Additional observations from a re-analysis of the deposited data

How the results depend on the processing

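Against 10 members higher and 2 lower, limma on log2(FPKM + 1) and on log2(FPKM + 0.1) each gave 2 higher, DNAJA3 and TRAP1, the offset for the local median 1, and a log2 fold change beyond 1 left 1 higher, DNAJB5, and 1 lower, DNAJB2. Leaving out 1 library gave 4 to 14 higher and 2 to 3 lower, DNAJA4 being added without OE-MMP28 replicate 1. Over all genes, 6.63% and 6.57% were called higher in the limma fits, 7.41% with the offset and 6.27% to 12.2% without 1 library. All genes called lower numbered 965 and 970 in the limma fits, 1229 with the offset and 1044 to 1949 without 1 library. The edgeR test on all libraries called 11.7% of all genes higher and 1784 lower. The other network genes, 9 higher and 4 lower, became 5 higher under either limma fit and 2 beyond a log2 fold change of 1. Of them 2 were lower with limma on log2(FPKM + 1), 1 on log2(FPKM + 0.1), 2 with the offset, 1 beyond a log2 fold change of 1, and 2 to 8 when 1 library was left out. Correlations of same-numbered libraries of the 2 groups were -0.088 to 0.017, and those of the other pairs -0.15 to 0.17. With 3 libraries per group this check cannot exclude that same-numbered samples were paired, and the labels do not say. The fit with the replicate block gave the same 10 and 2 members. Other filters, scalings and tools gave 9 or 10 higher, DNAJB5 being the one lost, and 2 or 3 lower, with DNAJA4 added under upper-quartile scaling.

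Signs turned among members that were not past the threshold. With the offset, 9 members turned: HSPA2 was at -0.17, HSPH1 at -0.081, HSPD1 at 0.13, STIP1 at -0.023, HSPB1 at 0.069, DNAJA2 at 0.19, CCT4 at 0.33, CCT7 at 0.34 and HSF1 at 0.16. HSPE1 was at -0.00030 without a filter, -0.014 with at least 1 CPM in 3 libraries, -0.0059 with DESeq2 size factors, -0.032 with upper-quartile scaling, -0.0058 in DESeq2, -0.0065 over protein-coding genes and -0.019 without mitochondrial genes. Leaving out 1 library gave -0.16 to 0.21 for HSPA1A, -0.43 to 0.016 for HSPA1B, -0.053 to 0.24 for HSPH1, -0.13 to 0.22 for HSPE1, -0.21 to 0.035 for HSPB1 and -0.10 to 0.40 for HSF2. The cause of these changes was not tested. With 3 libraries per group the 95% interval of HSP90AB1, abundant in every library, still ran from -0.39 to 0.18, so changes of that range are compatible with the data. Pseudogene or opposite-strand reads could not be separated.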
